A study of Arabidopsis thaliana with 36 samples.

Results

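pTAC3 and RpoB occupancy of the plastid genome were compared in wild-type Arabidopsis seedlings, to see where along the genome the profiles of these proteins differ once the strength of each library is taken out. The libraries compared were all those of the wild-type line Col-0 in the series, 18 of 36. They were 3 of pTAC3 ChIP, 6 of RpoB ChIP and the 9 inputs, which were sequenced without immunoprecipitation. For the antibody's background only, pTAC3 ChIP of the ptac3 mutant (n = 3) with its inputs was used as well. The 6 RpoB libraries came from separate sets of 3, whose labels carry the name of the ptac3 mutant (the ptac3 set) or the ptac14 mutant (the ptac14 set). The labels do not say how the sets were collected. The pTAC3 libraries formed a set of their own, so antibody and set cannot be told apart, and the difference between the RpoB sets is given throughout as the size of a set difference. That set difference compares 3 with 3 libraries rather than 3 with 6, so at equal spread it carries more noise than the antibody difference. All groups shared 1 treatment. Col-0 seeds were kept 48 h in the dark and grown on 0.5X MS plates in continuous light of 100 µmol per m2 and s. A lot of 50 seedlings was harvested at 5 days, fixed with 4% formaldehyde for 4 h and enriched for chloroplasts. No agent was applied. The labels do not say that replicates were separate cultures, so p-values measure only the spread between these samples.

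The antigen RpoB is the catalytic beta subunit of PEP, the RNA polymerase encoded by the plastid itself, a bacterial-type enzyme that transcribes most photosynthesis, tRNA and rRNA genes of the chloroplast. pTAC3 is a nuclear-encoded protein that associates with PEP in the plastid transcriptionally active chromosome. A separate phage-type, nuclear-encoded polymerase (NEP) transcribes housekeeping genes such as rpoB, accD and clpP, the last of these together with PEP.

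Enrichment was the log2 ratio of ChIP to same-numbered input coverage, each scaled to its library mean. Each library's profile over 3085 bins of 50 bp was regressed on the mean profile of the 9 ChIP libraries. The slope of that line is the library's amplitude. Subtracting the intercept and dividing by the slope gave matched values, all log2 ratios on the scale of the mean profile. A gene value is the log2 ratio of mean ChIP to mean input coverage over the gene body, matched in the same way. Genes of different length can thus be set side by side.

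The amplitude of pTAC3 and RpoB ChIP differed by less than the spread between libraries. The slopes were 0.848, 1.00 and 1.06 in the pTAC3 libraries. In the RpoB libraries they were 1.09, 0.722 and 0.829 in the ptac3 set and 0.972, 1.13 and 1.35 in the ptac14 set. The groups overlapped, and the RpoB libraries held both the lowest and the highest slope. The means were 0.970 ± 0.110 for pTAC3 (SD, n = 3) and 1.01 ± 0.225 for RpoB (SD, n = 6), a difference of -0.0443 (exact permutation test, two-sided, p = 0.786). The smallest p this 3 against 6 test can give is 0.0238. Against the RpoB ptac3 set alone the difference was 0.0916 and against the ptac14 set alone it was -0.180, so its sign depended on the RpoB set. The RpoB sets themselves differed by 0.272 (ptac14 minus ptac3 set, exact permutation p = 0.2, smallest possible 0.1).

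pTAC3 ChIP in the ptac3 mutant, which lacks the antigen, gave the antibody's background. Its slope on the same mean profile was 0.0402 ± 0.0939 (SD, n = 3), so the profile described here was nearly absent without pTAC3. Mean coverage per position was 244 to 573 in pTAC3 ChIP libraries, 113 to 1538 in RpoB ChIP libraries and 318 to 730 in inputs. The counting error at the mean coverage of a ChIP library was 2.55% to 9.41% of it, for counting error only. What was left of a matched library after the mean profile was subtracted had an SD over bins of 0.169 to 0.203 for pTAC3 and 0.139 to 0.224 for RpoB.

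After matching, pTAC3 and RpoB lay on the same genes at nearly the same levels. Of 128 plastid genes, 0 (0%) passed an adjusted p under 0.05 in limma with Benjamini-Hochberg adjustment, and 11 (8.59%) had an unadjusted p under 0.05. Between the RpoB sets the same fit gave 12 genes (9.38%) at that unadjusted threshold, and 0 after adjustment. Over the 113 genes of 1 copy of the inverted repeat the difference, pTAC3 minus RpoB, had a median of 0.0043 and ran from -0.30 to 0.34. It was positive in 59 genes and negative in 54. In 101 of these genes it was smaller than 0.2 in size, and in 108 the limma 95% interval lay within ±0.5, a fold of 1.41. The median size of the difference was 0.0795, and that between the RpoB sets, which rests on fewer libraries, was 0.0812. The same 38 genes had a mean above 0 with both antibodies, and 19 of the top 20 genes were shared. Across genes, which are not independent replicates and share the mean profile through the matching, Pearson's r of the antibody means was 0.995 and Spearman's rho 0.987.

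**Figure D1:**
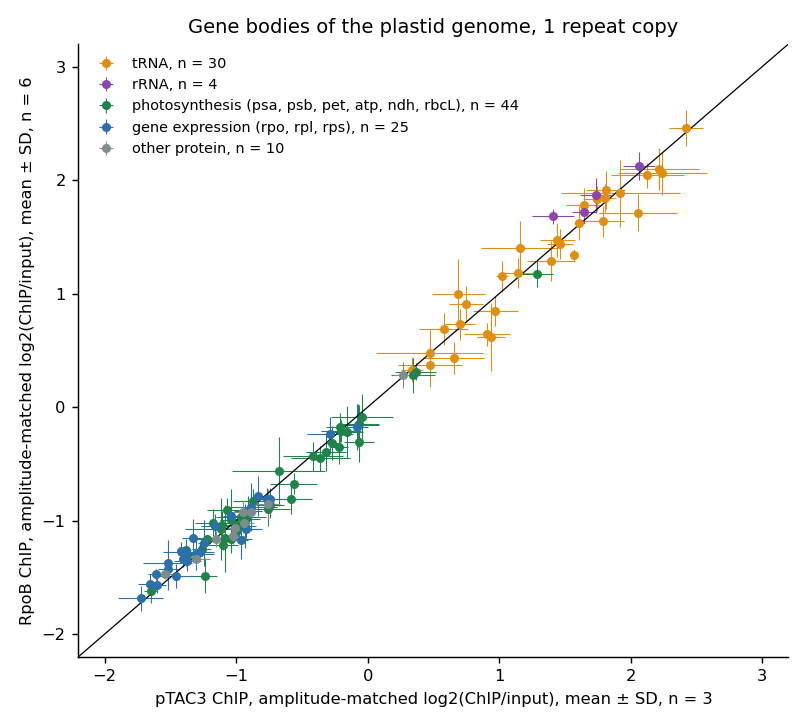
Matched log2(ChIP/input) of 113 gene bodies, pTAC3 on the horizontal axis (mean ± SD, n = 3) and RpoB on the vertical axis (mean ± SD, n = 6), coloured by gene class, with the line of equal values. Genes of every class lie along the line, and the differences run from -0.30 (trnH) to 0.34 (trnM).

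Over bins, which follow the genome without regard to genes, 0 of 3085 (0%) passed the adjusted limma threshold and 221 (7.16%) had an unadjusted p under 0.05, against 267 (8.65%) between the RpoB sets. The difference between antibodies was under 0.2 in size in 83.2% of bins. Its SD over bins was 0.145, and that of the difference between the RpoB sets, which rests on fewer libraries, was 0.189. Without matching, limma again called 0 bins (0%), with 47 (1.52%) at an unadjusted p under 0.05, and 0 genes (0%), with 5 (3.91%) at that threshold. Against the RpoB ptac3 set alone 2 bins (0.0648%) passed the adjusted limma threshold. One lay within rpoC2 (plastid position 16051 to 16100, difference -0.75, adjusted p = 0.0341). The other lay between clpP and psbB (72151 to 72200, difference 0.76, adjusted p = 0.0341). Against the ptac14 set alone neither passed.

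The largest positive differences over bins lay just upstream of operons for photosystem proteins. Of the 5 bins with the largest positive difference, 3 covered positions 72101 to 72250, which precede psbB, the gene for the CP47 antenna protein of photosystem II. The other 2 covered 42001 to 42100, which precede psaA, the gene for a reaction centre protein of photosystem I. In the bin 72151 to 72200 the matched values were 1.10, 1.00 and 0.80 with pTAC3, against 0.14, 0.29 and 0.72 (lowest, median and highest of 6) with RpoB. All 3 pTAC3 libraries lay above all 6 RpoB libraries, as they did in 60 bins (1.94%) of the genome, while 60 (1.94%) showed the opposite order. The difference in this bin was 0.62 ± 0.12 (SE, limma adjusted p = 0.147). The most negative bins were 36201 to 36250 (-0.58), which lies next to a tRNA cluster and in which the RpoB sets differed by 0.71, and 16051 to 16100 within rpoC2 (-0.50).

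These upstream stretches were then measured for every gene, a comparison chosen after the bins had been seen. The gene table gives no strand, so which side of a gene is upstream rests on the generally known map of the plastid genome, here and in all comparisons along a gene or region. The matched log2 ratio of mean coverages over the 300 bp before each annotated gene start was fitted in limma for 128 genes. By the adjusted p 0 windows (0%) were called, the lowest adjusted p being 0.0718, and 7 (5.47%) had an unadjusted p under 0.05. All 3 pTAC3 libraries lay above all 6 RpoB libraries in 2 windows (1.56%) and below them in 3 (2.34%). The 2 windows were those of psbB, described next, and psbM, with a difference of 0.19 (limma adjusted p = 0.579). Over 1 repeat copy the median difference was 0.030, with a range from -0.24 to 0.44.

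Upstream of psbB the matched values were 0.60, 0.49 and 0.47 in the pTAC3 libraries. In the RpoB libraries the lowest was -0.054, the median 0.018 and the highest 0.31. No pTAC3 library overlapped with an RpoB library here. The means were 0.52 ± 0.070 for pTAC3 (SD, n = 3) and 0.082 ± 0.15 for RpoB (SD, n = 6), a difference of 0.44 with a 95% interval from 0.23 to 0.65 (limma adjusted p = 0.0718). The RpoB sets differed by 0.18 in this window. Its adjusted p passed the threshold in 3 of 23 alternative settings. They were a pseudocount of 25% (0.0308), a fit with the replicate number as a block (0.0332) and the RpoB ptac3 set alone (0.0255). Over the 23 settings the difference stayed between 0.35 and 0.53, with an adjusted p of 0.0255 to 0.560. The body of psbB did not share the difference, with -0.87 ± 0.15 for pTAC3 and -0.83 ± 0.11 for RpoB (difference -0.045, limma adjusted p = 0.838).

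The window upstream of clpP, which encodes a protease subunit and is transcribed in the opposite direction, overlaps that of psbB. It read -0.0011, 0.12 and -0.18 with pTAC3, against -0.73, -0.41 and -0.13 (lowest, median, highest) with RpoB. The difference was 0.39 (limma adjusted p = 0.113), but the RpoB sets differed by nearly as much, 0.37. Against the RpoB ptac3 set alone the difference was 0.57 and passed (limma adjusted p = 0.0255), and against the ptac14 set alone it was 0.20 (limma adjusted p = 0.788), the lowest and highest p over 23 alternative settings.

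Upstream of psaA the pTAC3 libraries read 0.85, 0.48 and 0.85, against 0.26, 0.34 and 0.50 (lowest, median, highest) in the RpoB libraries. One pTAC3 library lay within the RpoB range and the others above it. The difference was 0.38 with an interval from 0.15 to 0.61 (limma adjusted p = 0.137), and the RpoB sets differed by -0.028. Over 23 alternative settings the difference stayed between 0.31 and 0.50, with a limma adjusted p of 0.0560 to 0.879, and 0 of them passed. The highest difference and lowest p came from leaving out pTAC3 replicate 2, the library within the RpoB range.

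Upstream of psbE, which encodes a subunit of cytochrome b559 in photosystem II, the values were 0.71, 0.65 and 0.54 with pTAC3, against 0.20, 0.49 and 0.56 (lowest, median, highest) with RpoB. The ranges overlapped narrowly, and the difference of 0.20 had an interval from -0.0060 to 0.41 (limma adjusted p = 0.579). Upstream of rbcL, the gene for the large subunit of Rubisco, the means were 1.55 ± 0.39 for pTAC3 and 1.39 ± 0.36 for RpoB (SD). This difference of 0.15 was smaller than the spread between replicates (limma adjusted p = 0.803), and it was -0.058 without pTAC3 replicate 2 (limma adjusted p = 0.924). The other windows among the 5 most extreme each way were those of ycf1 (Arthcp087, 0.25) and trnN (Arthct120, 0.25) on the positive side. On the negative side were trnI (ArthCt113, -0.24), rrn4.5S (-0.24), rps19 (-0.22), the rRNA gene ArthCr091 (-0.20) and trnS (ArthCt091, -0.19). None of these windows, on either side, passed the adjusted limma threshold. The windows of ycf1 and trnN lie in opposite copies of the inverted repeat and cover largely the same sequence, so they are not separate measurements. The sign of the trnS window rested on 1 library, with a difference of 0.089 without pTAC3 replicate 3 (limma adjusted p = 0.813). Upstream of psbA, the gene for the D1 protein of photosystem II, the difference was 0.024 with an interval from -0.22 to 0.26.

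**Figure D2:**
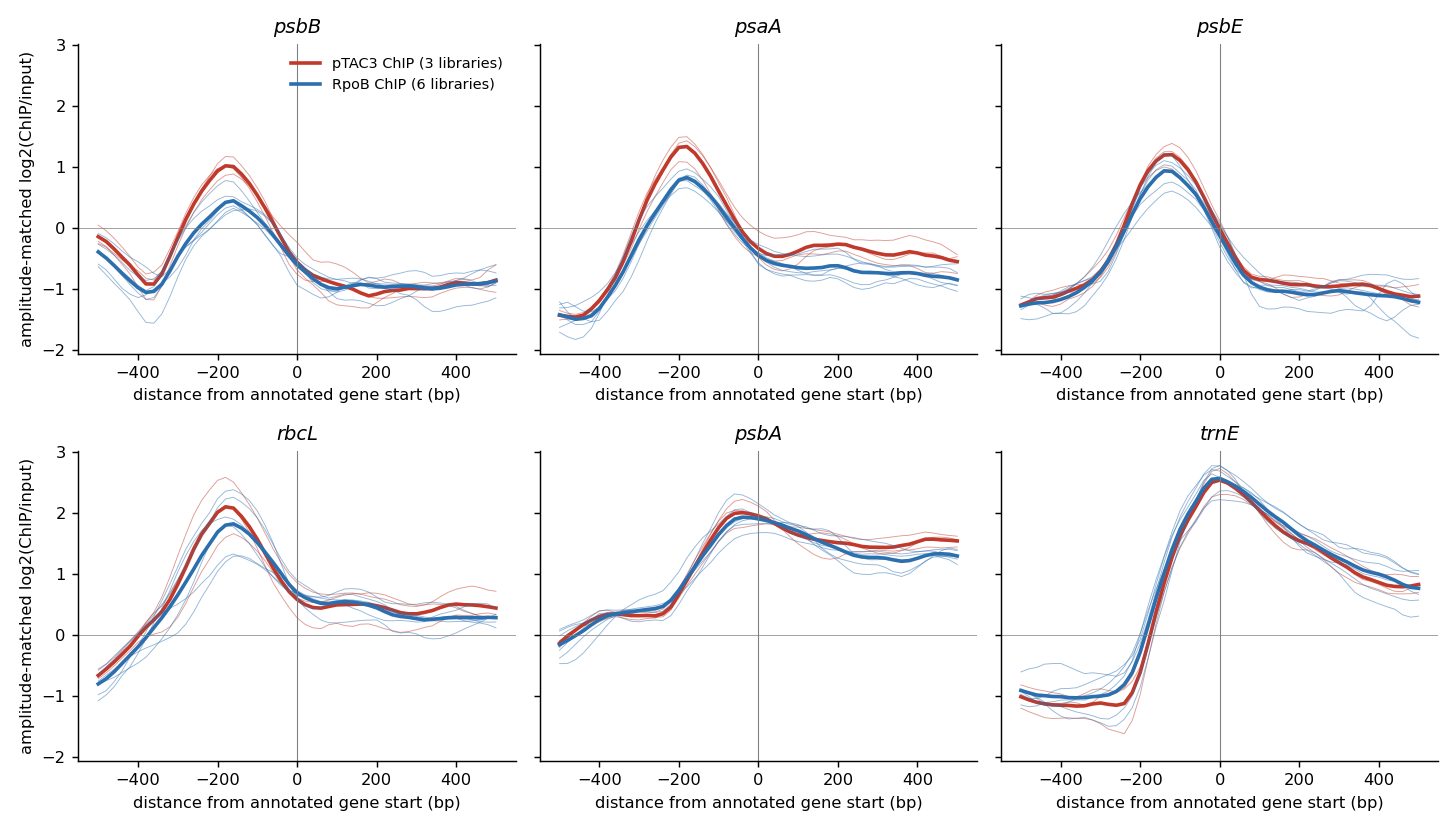
Matched log2(ChIP/input) against the distance from the annotated gene start for 6 genes, oriented with transcription to the right. Thin lines are single libraries (3 of pTAC3 ChIP, 6 of RpoB ChIP) and thick lines their means. The mean pTAC3 profile exceeds that of RpoB at the upstream peaks of psbB (1.02 against 0.45) and psaA (1.34 against 0.83), and the antibodies lie close together at trnE (2.55 against 2.57).

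At these starts the peaks of both mean profiles lay at nearly the same distance. In steps of 20 bp the mean profiles of pTAC3 and RpoB were both highest at -180 bp from the annotated start of psaA. For psbB and for rbcL the highest step was at -180 bp with pTAC3 and -160 bp with RpoB. For psbE it was at -120 bp with pTAC3 and -140 bp with RpoB. At trnE both lay at the start itself. At psbA both mean profiles were highest at -40 bp, but single libraries peaked between -60 and 20 bp with pTAC3 and between -60 and 60 bp with RpoB.

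Of the 20 genes with the highest occupancy, 19 were shared. Their order differed between the antibody means, but no gene difference passed the adjusted limma threshold (lowest adjusted p = 0.231). trnE, the tRNA for glutamate that also feeds tetrapyrrole synthesis, ranked first with each, at 2.42 ± 0.13 for pTAC3 and 2.46 ± 0.16 for RpoB (SD, n = 3 and n = 6). trnQ read 2.24 ± 0.34 for pTAC3 and 2.06 ± 0.19 for RpoB, and trnP 2.22 ± 0.30 for pTAC3 and 2.10 ± 0.19 for RpoB. The neighbours of trnE in its transcription unit, trnY and trnD, had differences of -0.14 and -0.16. trnV (ArthCt103) differed by -0.032. None of these passed the adjusted limma threshold. In the ptac3 mutant pTAC3 ChIP gave an unmatched enrichment of only 0.13 ± 0.39 at trnE (SD, n = 3).

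The tRNA genes also held both ends of the range of differences, and because they are short, their values include DNA fragments that reach into the flanks. trnM (ArthCt104), the elongator methionine tRNA, read 2.38, 1.99 and 1.80 with pTAC3, against 1.49, 1.73 and 1.89 (lowest, median and highest) with RpoB. The ranges overlapped, and the difference of 0.34 had an interval from 0.055 to 0.63 (limma adjusted p = 0.436). Without pTAC3 replicate 1 it was 0.18 (limma adjusted p = 0.694). trnH read 0.64, 0.91 and 0.52 with pTAC3, against 0.59, 0.94 and 1.48 with RpoB, a difference of -0.30 (limma adjusted p = 0.501).

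In 3 genes of 1 repeat copy all pTAC3 libraries lay above all RpoB libraries, and in 2 all lay below. Over all 128 genes these shares were 3.12% and 1.56%. trnS (ArthCt117) read 1.59, 1.53 and 1.57 with pTAC3, against 1.26, 1.32 and 1.43 (lowest, median, highest) with RpoB. Its difference of 0.23 had an interval from 0.097 to 0.36 (limma adjusted p = 0.231). ArthCt100, a tRNA gene, read 1.08, 0.91 and 0.73 with pTAC3, against 0.46, 0.68 and 0.73 with RpoB (difference 0.27, limma adjusted p = 0.340). ndhD, which encodes a subunit of the NDH complex, differed by 0.10 (limma adjusted p = 0.585). The lower ones were rpoC1, a gene for a PEP subunit, at -0.13 (limma adjusted p = 0.501), and rpl14, a ribosomal protein gene, at -0.15 (limma adjusted p = 0.501).

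Among protein genes with strong PEP promoters, the gene bodies of psbA, rbcL and psbD differed by 0.13 or less in size. psbA read 1.29 ± 0.12 with pTAC3 and 1.17 ± 0.12 with RpoB (SD), a difference of 0.12 with an interval from -0.051 to 0.29. rbcL read 0.36 ± 0.15 with pTAC3 and 0.31 ± 0.076 with RpoB. Its difference of 0.053 was 0.14 without pTAC3 replicate 1 (limma adjusted p = 0.686) and -0.016 without pTAC3 replicate 2 (limma adjusted p = 0.913). psbD, which encodes the D2 protein of photosystem II, differed by 0.13.

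psaA had the largest difference of the protein genes on the fixed list when all libraries were used, 0.23 with an interval from 0.019 to 0.44 (limma adjusted p = 0.501). It read -0.62, -0.72 and -0.41 with pTAC3, against -0.98, -0.81 and -0.62 (lowest, median, highest) with RpoB. The ranges overlapped, and without pTAC3 replicate 3 the difference was 0.14 (limma adjusted p = 0.519). For psbE the difference was 0.12. The ATP synthase genes atpB and atpI had differences of 0.090 and -0.093. petB, a gene for a cytochrome b6f subunit, differed by -0.070. None of these passed the adjusted limma threshold.

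The 5 genes of the list known for NEP promoters had negative matched values with both antibodies. This was not particular to them, since only 38 of 113 genes had a mean above 0 with both. The atp genes averaged -0.96 with pTAC3 and -0.97 with RpoB, and the pet genes -0.97 with each. rpoC2 read -1.65 ± 0.091 with pTAC3 and -1.56 ± 0.093 with RpoB (SD), and rpoB -1.60 ± 0.065 with pTAC3 and -1.57 ± 0.077 with RpoB. accD, which encodes a subunit of acetyl-CoA carboxylase, read -1.16 ± 0.10 with pTAC3 and -1.16 ± 0.071 with RpoB. clpP read -0.94 ± 0.078 with pTAC3 and -1.02 ± 0.085 with RpoB. ycf2, a gene for a subunit of the protein import motor, read -1.54 ± 0.064 with pTAC3 and -1.47 ± 0.044 with RpoB. None passed the adjusted limma threshold.

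By gene class, 0 of 13 classes (0%) passed an adjusted p under 0.05 in exact permutation tests over libraries, and 1 (7.69%) had an unadjusted p under 0.05. That class was rpo, the 4 genes for PEP core subunits. Its mean was -1.42 ± 0.048 for pTAC3 (SD, n = 3) and -1.35 ± 0.035 for RpoB (SD, n = 6), a difference of -0.078 (exact permutation p = 0.0238, adjusted p = 0.310). All 3 pTAC3 libraries lay below all 6 RpoB libraries, so this p was the smallest the test can give. All 4 genes were lower, but rpoB, rpoC1 and rpoC2 are neighbours and not separate observations. Without pTAC3 replicate 2 the difference of rpoB was only -0.0012 (limma adjusted p = 0.996). The 4 rRNA genes, rrn16S, rrn23S and rrn4.5S of 1 operon and ArthCr091 of the other repeat copy, were also all lower. Their mean was 1.71 ± 0.11 for pTAC3 and 1.85 ± 0.088 for RpoB (difference -0.13, exact permutation p = 0.0952, adjusted p = 0.464). Genes of 1 operon are not separate observations. The RpoB sets differed by -0.11 in that class.

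The 30 tRNA genes averaged 1.33 ± 0.066 for pTAC3 and 1.31 ± 0.045 for RpoB (SD), with 15 genes higher. Of these, 3 had an unadjusted limma p under 0.05, while 11 of all 128 genes (8.59%) reached it in either direction. The 11 ndh genes were higher in 10 cases, by 0.054 on average (exact permutation adjusted p = 0.464). Some of them, such as ndhJ, ndhK and ndhC, are neighbours, so these are not separate observations. The 5 psa genes differed by 0.080 and the 15 psb genes by 0.041, where the RpoB sets differed by 0.088 and 0.13. In the atp, pet, rpl and rps genes, the other protein genes and the bins that overlap no gene, the class difference ran between -0.029 and 0.030. The smallest size was in pet, at -0.0052.

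**Figure D3:**
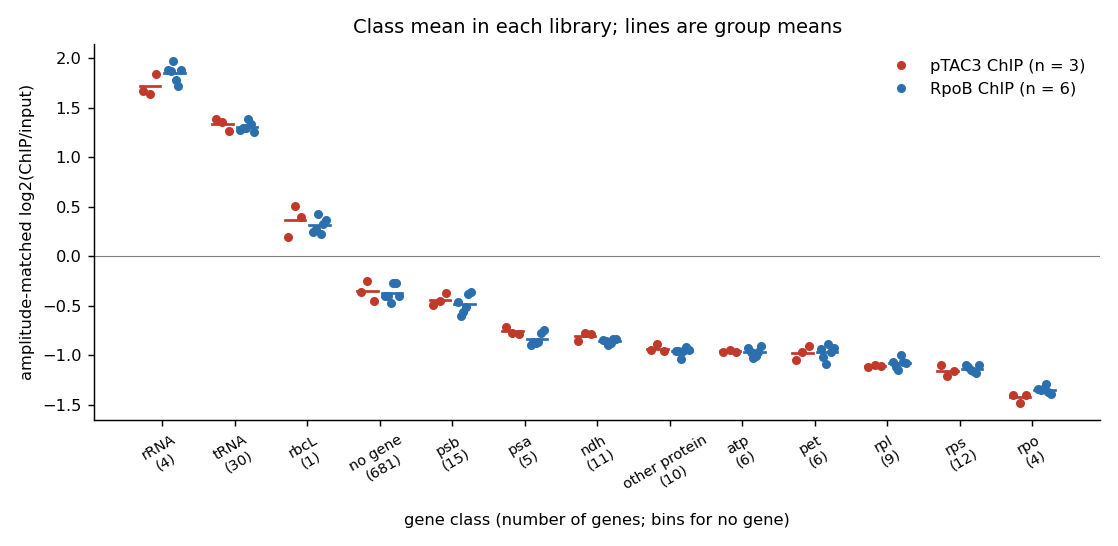
Mean matched log2(ChIP/input) of each gene class in every library, pTAC3 ChIP (n = 3) left of RpoB ChIP (n = 6), with lines at the group means and the number of genes in brackets. Points of the antibodies overlap in 12 of 13 classes, and in the rpo class the pTAC3 points (-1.42 on average) lie below the RpoB points (-1.35).

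By distance from the gene start, 0 of 45 windows of 100 bp (0%) passed the adjusted threshold and 0 (0%) had an unadjusted p under 0.05 in exact permutation tests. The lowest adjusted p was 0.893. At tRNA genes both proteins were highest in the 100 bp before the start, with 1.45 ± 0.16 for pTAC3 and 1.41 ± 0.085 for RpoB (SD). At rRNA genes the highest window was the one from -200 to -100 bp for both, at 2.11 ± 0.10 for pTAC3 and 2.14 ± 0.14 for RpoB. This is a class mean, and the genes differed. In the 300 bp before rrn16S pTAC3 read 2.63 and RpoB 2.45. Before rrn23S they read 2.10 and 2.16, and before rrn4.5S 1.71 and 1.94. Protein genes showed no such peak as a class. Their windows ran from -0.88 to -0.63 for pTAC3 and from -0.88 to -0.65 for RpoB.

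In steps of 20 bp the tRNA profile peaked at -20, -20 and 0 bp in the pTAC3 libraries, and at -20 bp in 3 and 0 bp in 3 of the RpoB libraries. The rRNA profile peaked at -140, -140 and -100 bp in the pTAC3 libraries and between -140 and -40 bp in the RpoB libraries. The mean position differed by -3.33 bp at tRNA genes (exact permutation p = 1.00) and by -16.7 bp at rRNA genes (exact permutation p = 0.762), less than the step in each case.

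**Figure D4:**
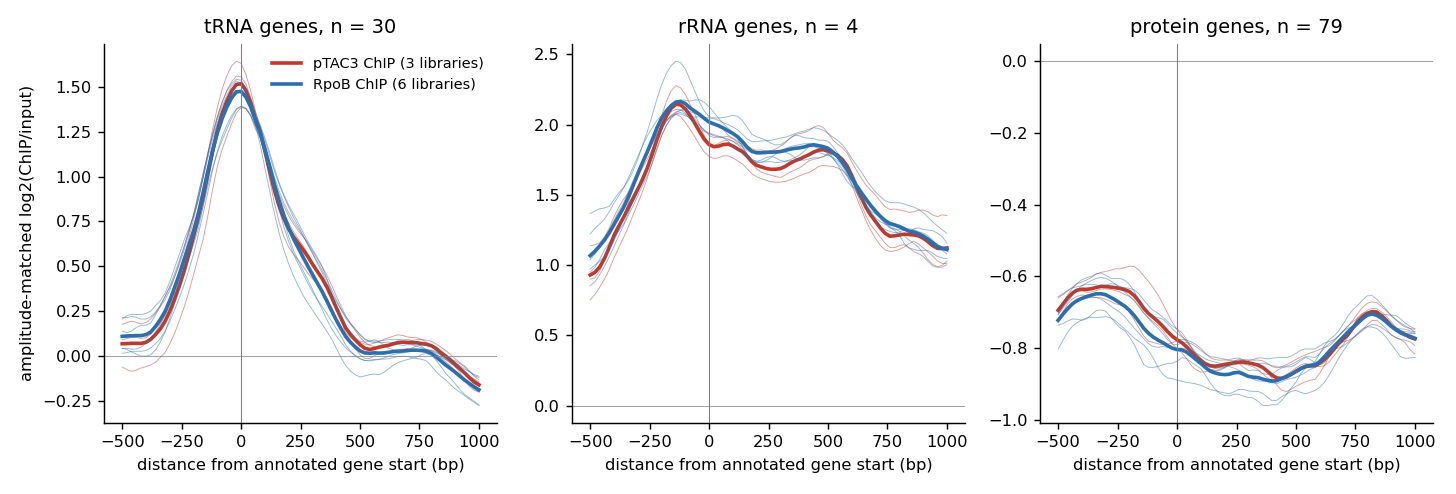
Mean matched log2(ChIP/input) of tRNA, rRNA and protein genes of 1 repeat copy against the distance from the annotated gene start. Thin lines are libraries, thick lines the means of pTAC3 ChIP (3) and RpoB ChIP (6), and the vertical axes differ between panels. The class means of both antibodies peak at the start of tRNA genes and upstream of rRNA genes (in the pTAC3 libraries at -140, -140 and -100 bp). Those of protein genes stay below 0.

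Within protein genes the slope of occupancy from start to end was compared as well. Each of 39 genes of at least 600 bp was split in 3 equal parts along its strand, and the last part was subtracted from the first. The mean over genes was 0.032, 0.021 and 0.027 in the pTAC3 libraries. In the RpoB libraries the lowest was -0.012, the median 0.0025 and the highest 0.014, so the groups did not overlap. The difference was 0.024 on the log2 scale (exact permutation p = 0.0238, the smallest this test can give, and not adjusted for the other comparisons). With the median over genes in place of the mean it was 0.025 (exact permutation p = 0.381).

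Of the 39 genes, 20 had a positive value with pTAC3 and 17 with RpoB, and 0 genes (0%) passed the adjusted threshold. An unadjusted p under 0.05 was reached by 3 (7.69%), which went in different directions. They were psaA, with 0.17 ± 0.087 for pTAC3 and 0.011 ± 0.071 for RpoB (SD), atpF, an ATP synthase gene, with a difference of -0.20, and rps3, a ribosomal protein gene, with a difference of -0.22.

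Positions of the bound regions were compared through the centroid, the mean position in a region weighted by enrichment above the region's lowest value, which does not depend on amplitude. There were 19 regions in 1 repeat copy, with a median length of 400 bp and 20250 bp in all, each widened by 200 bp on both sides. In a fixed window the centroid moves less than the peak itself. Averaged over regions the centroid lay at -7.67 ± 17.9 bp for pTAC3 and -7.25 ± 10.98 bp for RpoB (SD, n = 3 and n = 6), measured from the region's middle along the strand. The difference was -0.416 bp (exact permutation p = 0.952). limma called 0 regions (0%) after adjustment, and 3 (15.8%) had an unadjusted p under 0.05.

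The median size of a region's shift was 7.22 bp, and that between the RpoB sets was 12.2 bp. In 16 of 19 regions it was under 20 bp, and in 13 the 95% interval lay within 50 bp of 0. By the lag of highest correlation with the other libraries the mean difference was 0.947 bp. Region width, the SD of position under the same weights, averaged 353.4 ± 4.89 bp for pTAC3 and 353.5 ± 4.11 bp for RpoB, and differed by -0.018 bp (exact permutation p = 0.976). By limma 0 widths (0%) passed at the adjusted and 0 (0%) at the unadjusted threshold.

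The 3 regions at an unadjusted p under 0.05, named for that after their values were seen, were those of trnI, of trnL and of the rRNA operon. The centroid of the region of trnI (ArthCt113) and the start of ycf2 lay at 13.3 ± 4.38 bp with pTAC3 and -9.32 ± 7.14 bp with RpoB (SD), a shift of 22.6 bp in the direction of trnI transcription (limma adjusted p = 0.219). That of trnL (Arthct122) was shifted by 15.4 bp downstream (limma adjusted p = 0.296). That of the rRNA operon was shifted by -44.2 bp, towards its start (limma adjusted p = 0.260). Without widening, the trnI and trnL shifts were 0.711 bp and 2.82 bp.

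The rRNA operon region runs over 7950 bp from trnV (Arthct121) through rrn16S, trnI, trnA and rrn23S to rrn4.5S and trnR, and encodes plastid ribosomal RNAs and tRNAs. Without widening, its centroid lay at -387, -309 and -356 bp in the pTAC3 libraries, against -254, -174 and -122 bp (lowest, median, highest) in the RpoB libraries. The groups did not overlap. This shift of -162 bp had an interval from -236 to -87.4 bp (limma adjusted p = 0.0222), while the RpoB sets differed by 18.7 bp. The summit moved by only -6.83 bp and the lag of highest correlation by -9.67 bp.

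Along the operon the gene difference was positive at trnV and negative from rrn16S on, and none passed the adjusted limma threshold. Without pTAC3 replicate 2 that of trnI was 0.0078 (limma adjusted p = 0.951). trnV (Arthct121) read 1.39 ± 0.18 with pTAC3 and 1.29 ± 0.18 with RpoB (SD), a difference of 0.10. rrn16S read 2.06 ± 0.12 with pTAC3 and 2.13 ± 0.12 with RpoB, a difference of -0.062. The differences that followed were -0.038 for trnI (ArthCt107), -0.11 for trnA, -0.13 for rrn23S, -0.27 for rrn4.5S and -0.25 for trnR (ArthCt127). This list leaves out the rRNA gene ArthCr091, which was counted from the other repeat copy. With it the 4 rRNA genes had differences from -0.27 to -0.062 with a median of -0.10.

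rrn4.5S, near the end of the operon, read 1.25, 1.41 and 1.57 with pTAC3, against 1.55, 1.70 and 1.72 (lowest, median, highest) with RpoB. One pTAC3 library reached into the RpoB range. The difference of -0.27 had an interval from -0.45 to -0.098 (limma adjusted p = 0.231). In the 300 bp before rrn16S the difference was 0.18 (limma adjusted p = 0.616), and 0.028 without pTAC3 replicate 1 (limma adjusted p = 0.943). The copies of the inverted repeat carry the same genes, and how the authors treated reads that match both is not given, so the other copy is no second measurement.

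**Figure D5:**
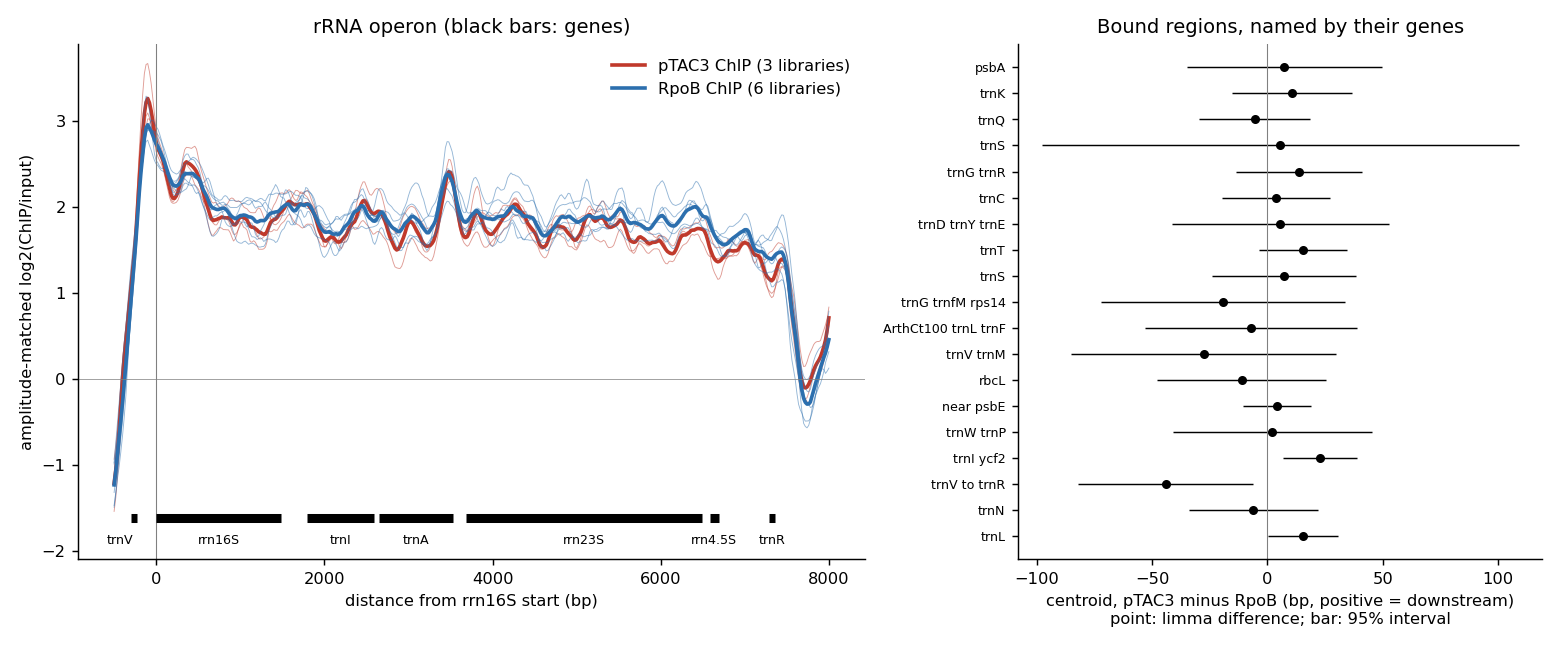
Left, matched log2(ChIP/input) along the rRNA operon against the distance from the rrn16S start, with pTAC3 ChIP (3 libraries) and RpoB ChIP (6 libraries) as thin lines, their means as thick lines and genes as black bars. Right, centroid shift of each of the 19 widened regions, pTAC3 minus RpoB in bp along the strand (limma difference with its 95% interval). The mean pTAC3 line lies below that of RpoB at rrn4.5S (difference -0.27, limma adjusted p = 0.231), and among the 19 regions the rRNA operon has the largest shift (-44.2 bp, limma adjusted p = 0.260).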

How the data were processed

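The authors deposited read coverage (signal, whole numbers) per plastid position for 36 libraries. Per the submitters' processing notes Trim Galore 0.4.1, Bowtie2 2.2.8.9, bedtools 2.25.0 and TAIR10 were used. Treatment of repeat reads and duplicates is not given in the sources used here. Depth varied between libraries, so coverage was scaled to each library's mean of 154477 positions, and a pseudocount of 5% of that mean was added before log2. Of 3089 bins, 4 were dropped for a mean input below 10% of the median. Gene positions came from a RefSeq TAIR10.1 table without strand, which was supplied from general knowledge of the plastid map. Profiles were matched as described, then tested in limma 3.58.1 (R 4.3.3; 3 group means, contrast pTAC3 minus the mean of both RpoB sets) or by exact permutation (SciPy 1.17.1), with Benjamini-Hochberg adjustment and two-sided p. Regions were runs of bins with a mean over 0.5, joined across 100 bp, of at least 200 bp. Scripts were tested on simulated data. In 18 of 18 replicate pairs the counts differed beyond sampling noise. Alternatives changed the pseudocount, input, filter, bin size, mean profile, RpoB set, fit and replicates. Named genes were a list of PEP and NEP genes, genes whose groups did not overlap, and the 5 most extreme bins, upstream windows or regions each way. trnM, trnH, other genes of the rRNA operon and the upstream windows of psbM, psbE, rbcL, psbA and rrn16S were named after their values were seen. Members and lists were chosen with earlier results of these data known. No sequence was used here.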

Additional observations from a re-analysis of the deposited data

Results flagged for a closer look

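The mean slope of occupancy within protein genes was higher in the pTAC3 than in the RpoB libraries by 0.024 on the log2 scale. All 3 pTAC3 libraries lay above all 6 RpoB libraries (exact permutation p = 0.0238, unadjusted, the smallest 3 against 6 libraries can give). The difference was positive in 21 of 39 genes. Among the 84 values checked for a library far from the others of the 6 RpoB libraries, 6 were marked, and chance marks about 1 in 20. RpoB replicate 3 of the ptac3 set stood apart in 3 of them: in the other protein genes (-1.03, lowest), in rpoB (-1.41, highest) and upstream of trnI (ArthCt113; 0.44, lowest). Its mean coverage of 238 was the second lowest of the RpoB libraries. RpoB replicate 2 of the same set stood apart in the centroid of the trnK region (-1.93 bp, lowest) and replicate 1 in that of the trnW and trnP region (42.9 bp, highest). RpoB replicate 2 of the ptac14 set stood apart in rrn4.5S (1.55, lowest). The part of depth in these values was not tested.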

How the results depend on the processing

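Counts of limma calls stayed at 0 under the alternatives run, with these exceptions. For matched bins a pseudocount of 25% gave 3 and the RpoB ptac3 set alone 2. For unmatched bins an intensity trend gave 1. For upstream windows (chosen after seeing the data) a pseudocount of 25% gave 1, the replicate block 1 and the ptac3 set alone 2. For region centroids no widening gave 1. Leaving out a library gave 0 to 2 calls between the RpoB sets, for genes (2 without RpoB ptac3 set replicate 1) and for bins alike. The amplitude difference ran from -0.099 to 0.024 without single libraries and was 0.092 against the ptac3 set alone.

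The gene body polarity ran from 0.021 to 0.026 without single libraries. It was no longer past the threshold with the median over genes (0.025), against the ptac3 set alone (0.026) or the ptac14 set alone (0.022), or without any 1 pTAC3 library. Except for the median, those tests cannot reach 0.05 (smallest p 0.1 with 1 RpoB set, 0.0714 with 2 pTAC3 libraries). The mean centroid shift, near 0, ran from -8.88 to 8.96 bp without single libraries. It was 1.00 bp at a pseudocount of 25%, 0.367 bp with the mean input, 0.947 bp by lag and 2.60 bp against the ptac3 set alone. The mean width difference ran from -2.48 to 2.41 bp without single libraries. It was 1.10 bp at a pseudocount of 25%, 0.084 bp without widening and 2.49 bp against the ptac3 set alone. The cause was not tested.

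Whether replicate numbers paired the samples was not settled. The correlation of deviations between same-numbered libraries ran from -0.295 to 0.372 and was over 0.1 in 5 of 9 pairs. The best match had the same number in 6 of 9. With the replicate block the amplitude difference was -0.044, and the 1 call upstream of psbB (limma adjusted p = 0.0332) was the only one. No paired analysis was made for classes, distance windows and polarity, which came from exact tests. Of 782 values of named genes under other settings, 24 in 9 genes had the other sign, and of 234 of classes 18 in 7 classes. Matching on the linear ratio was run for the counts of calls, not for single genes or classes. With 3 and 6 libraries the median 95% interval of a gene was ±0.19, which limits what these data can separate.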
